A study of Drosophila melanogaster with 20 samples.

Results

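The genes described here are the 9 with the largest sex differences among named genes called between the sexes in the larval fly eye disc. FucTC, corolla, CG32572 and olf186-M were higher in males, and CG1835, kek5, Rbm13, Nplp2 and CG32793 were lower in males. They were taken by the gene symbol of the platform table, with every probe set, from 11982 genes that have a probe set of their own on the array. They have 10 probe sets in all, 2 of them for kek5. They were chosen by their male against female intensity difference in these same arrays, so that difference is given below as a description and without a test.

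RNA came from eye imaginal discs, the larval epithelia that form the adult compound eye, dissected from wandering larvae of the third instar of Drosophila melanogaster kept at 25 °C. All groups carried GMR-GAL4, a driver active in the developing retina behind the morphogenetic furrow, and the non-transgenic controls are labelled with the driver alone. The wild-type proinsulin lines WT-6 and WT-24 carried GMR-GAL4/UAS-hINSWT, and the mutant lines Mut-101 and Mut-1 carried GMR-GAL4/UAS-hINSC96Y, in which a cysteine of human proinsulin is replaced, with 1 copy of the transgene per fly. Each of the 5 lines was measured in male and in female larvae with 2 arrays per sex, termed biological replicates in the labels, which gives 10 male and 10 female arrays. Each transgenic line is 1 insertion line, so an effect of the protein and an effect of the line cannot be told apart within it, and the driver limits the transgene to part of the disc.

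Male flies have 1 X chromosome and females have a pair. In males the MSL complex, built on the msl-2 protein, raises transcription of the single X so that the output of most X-linked genes approaches that of females. In females the splicing factor encoded by Sxl blocks msl-2 and switches on tra, which directs the female form of dsx.

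The mean intensity of an array was 1194 to 1250 units and its median 213 to 286, and the 2 arrays of a group correlated at 0.978 to 0.993. Of 19 genes that define the eye disc, 18 were tested, and their summed intensity was 66846 to 71917 in males and 64731 to 74687 in females. No array had an intensity of 0 for any probe set of the marker lists. Fat body markers stood far higher in non-transgenic male replicate 2 (summed intensity 48007) and WT-24 female replicate 1 (32399) than in the other arrays (at most 17305). The highest median intensity was that of Mut-101 male replicate 2. In discs, fewer cells that express a gene and less RNA per cell cannot be told apart.

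A probe set was called changed when the limma fit over 10262 tested probe sets gave an adjusted p under 0.05. The 9 genes are the first 4 on the male side and the first 5 on the female side among named genes that were called and had the same sign in all 5 lines. The log2 difference male minus female just inside the choice was 0.83 for olf186-M and −1.14 for CG32793. Just outside it were Act87E, a muscle actin gene, with 0.82, CG17778 with 0.82, the glutathione transferase gene GstT3 with −1.06, and CG12481 with −0.86. The order holds only among named, called genes: over all tested probe sets olf186-M was 26th on the male side. Among the tested probe sets 12.3% were called between the sexes, 7.76% higher and 4.56% lower in males.

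**Figure D1:**
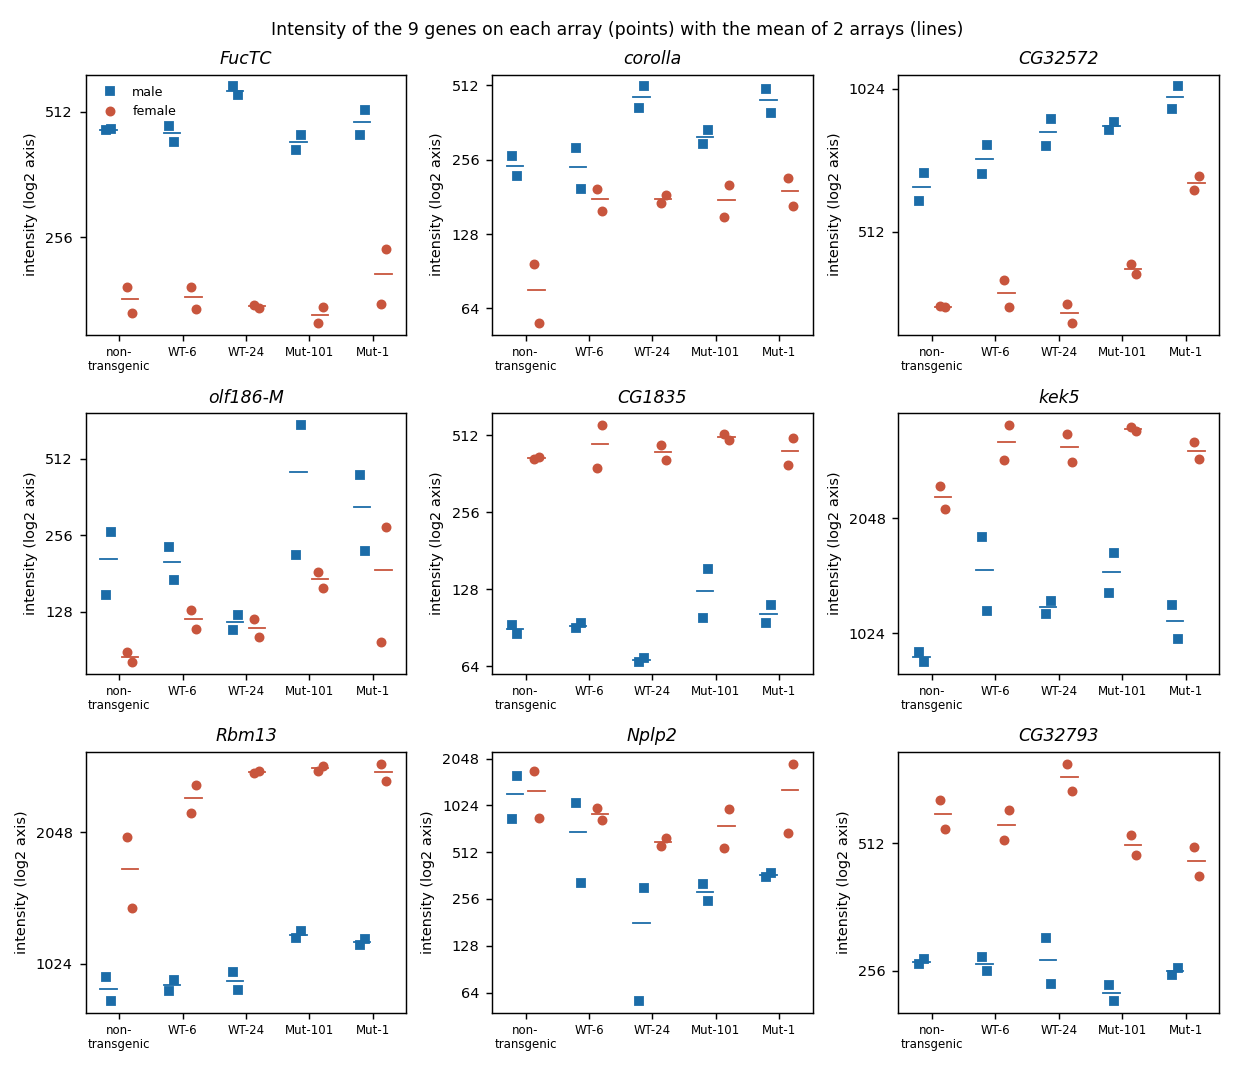
Array intensity (log2 axis) of the 9 genes in each of the 5 lines, with squares for male arrays, circles for female arrays and a line at the mean of the 2 arrays of a group. Male and female arrays separate completely for FucTC, CG1835, kek5, Rbm13 and CG32793, while those of olf186-M and Nplp2 spread widely within groups.

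FucTC encodes a member of the alpha-1,3-fucosyltransferase family, enzymes that add fucose to glycans. In males its intensity was 462 and 465 in non-transgenic discs, 474 and 434 in WT-6, 589 and 561 in WT-24, 414 and 451 in Mut-101, and 449.6 and 516 in Mut-1. In females it was 194 and 168 in non-transgenic discs, 195 and 173 in WT-6, 176 and 173 in WT-24, 159 and 174 in Mut-101, and 177 and 239.7 in Mut-1. The lowest male array lay well above the highest female array, and the females of 4 lines stayed within a narrow band. Mean intensity was 482 ± 56.3 in males and 183 ± 22.7 in females (SD, n = 10 each), a log2 difference of 1.40 ± 0.0612 (SE) or 2.63-fold. The difference ranged from 1.23 in Mut-1 to 1.72 in WT-24. Sex held 95.3% of the sum of squares of log2 intensity over the 20 arrays, and line held 1.58%.

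The corolla gene encodes a component of the central region of the synaptonemal complex, the structure that joins paired chromosomes in female meiosis. Male discs read 264 and 219.7 in the non-transgenic line, 284 and 194 in WT-6, 413 and 506 in WT-24, 296 and 336 in Mut-101, and 494 and 394 in Mut-1. Female discs read 96.6 and 55.9 in the non-transgenic line, 195 and 158 in WT-6, 171 and 184 in WT-24, 149.7 and 202 in Mut-101, and 216 and 166 in Mut-1. Male arrays were higher in each line, but in WT-6 the lower male array fell just under the higher female one, and the non-transgenic females were the lowest of all arrays. The means were 340.2 ± 109 in males and 159 ± 49.2 in females (SD, n = 10 each), a log2 difference of 1.12 ± 0.117 (SE) or 2.17-fold. By line it ran from 0.42 in WT-6 to 1.71 in non-transgenic discs. Sex held 54.7% and line 29.5% of its sum of squares, so line mattered more for corolla than for FucTC.

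Transcripts of kek5 code for a transmembrane protein with leucine-rich repeats and an immunoglobulin domain, one of the kekkon family, known in the fly wing as a modulator of BMP signalling. The probe set that represented it gave male intensities of 917 and 862 in non-transgenic discs, 1833 and 1169 in WT-6, 1148 and 1245 in WT-24, 1304 and 1665 in Mut-101, and 1214 and 991 in Mut-1. Female intensities on it were 2486 and 2172 in non-transgenic discs, 2914 and 3592 in WT-6, 3409.7 and 2879 in WT-24, 3543 and 3475 in Mut-101, and 3239 and 2928 in Mut-1. Every female array exceeded every male array, and the non-transgenic discs were the lowest of their sex. Means of 1235 ± 309 in males and 3064 ± 475 in females (SD, n = 10 each) gave a log2 difference of −1.33 ± 0.0831 (SE), or 2.52-fold lower in males. The lines ran from −1.49 in Mut-1 to −1.14 in WT-6, the narrowest range of the 9 genes.

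The other kek5 probe set did not show this separation. Its male arrays read 376 at the lowest, 537 at the median and 799.9 at the highest, and its female arrays 482, 623 and 759. The sexes overlapped in 4 of 5 lines, and the mean difference was −0.17 ± 0.122 (SE), with Mut-101 at 0.15 in the opposite direction. Sex held 9.92% of its sum of squares, against 84.8% for the first probe set. Both probe sets are paired with kek5 alone in the platform table, although the suffix _s_at of the first is the manufacturer's mark for probes shared by several transcripts. Where in the gene each one lies was not analysed here.

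Rbm13 encodes an RNA-binding protein whose yeast counterpart, Mak16, is needed to make the large ribosomal subunit. Males had 953 and 844 in non-transgenic discs, 887 and 943 in WT-6, 981 and 890.4 in WT-24, 1171 and 1217 in Mut-101, and 1133 and 1165 in Mut-1. Females had 1993 and 1374 in non-transgenic discs, 2261 and 2632 in WT-6, 2805 and 2821 in WT-24, 2828 and 2903 in Mut-101, and 2932 and 2681 in Mut-1. No female array came down to the male range, and the lowest 2 female arrays were the non-transgenic ones. Male and female means were 1018 ± 139 and 2523 ± 503 (SD, n = 10 each), a log2 difference of −1.29 ± 0.0599 (SE) or 2.44-fold lower in males. Non-transgenic discs had the smallest difference, −0.88, and WT-24 the largest, −1.59.

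Nplp2 encodes a precursor of secreted neuropeptide-like peptides. Male arrays read 843 and 1578 in non-transgenic discs, 1062 and 324 in WT-6, 56.7 and 302 in WT-24, 321 and 247 in Mut-101, and 357 and 375 in Mut-1. Female arrays read 1701 and 849 in non-transgenic discs, 980.5 and 824 in WT-6, 559 and 629 in WT-24, 547 and 965 in Mut-101, and 682 and 1889.5 in Mut-1. The sexes overlapped in non-transgenic discs and in WT-6 and separated in the other 3 lines, and the 2 arrays of a group often lay far apart. Its log2 difference of −1.17 ± 0.323 (SE), 2.25-fold lower in males, had the largest error of the 9 genes, and the lines ran from −0.06 in non-transgenic discs to −2.18 in WT-24. Without WT-24 male replicate 1, the array at 56.7, the difference was −0.93.

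The level of Nplp2 moved with haemocyte markers, the transcripts of circulating blood cells, of which 16 of 16 were tested. Their summed intensity was 31046 to 51866 in males and 35225 to 48204 in females, lowest in WT-24 male replicate 1, where Nplp2 was lowest too, and highest in non-transgenic male replicate 2, where Nplp2 was 1578. Nplp2 itself was highest, at 1889.5, in Mut-1 female replicate 2, where the haemocyte sum was 44694. Over the 20 arrays the log2 levels of Nplp2 and of the haemocyte sum correlated at r = 0.75, and at r = 0.82 after the mean of each group was removed. With the fat body sum, also highest in non-transgenic male replicate 2, r was 0.42 and 0.35. The pair of Nplp2 and haemocyte markers was picked after the values were seen, and 1 of the 16 markers, lz, is also an eye disc gene. Between the sexes the median log2 difference of the 16 markers was −0.11, with crq called higher and atilla lower in males. With each array centred on its median, lz, PPO2 and atilla were called lower and 0 higher. The part of haemocytes in the sex difference of Nplp2 was not tested.

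olf186-M lies beside Orai, the gene of the pore subunit of the store-operated calcium channel, in the olf186 locus. It read 148 and 263 in non-transgenic males, 231 and 170.1 in WT-6, 108 and 125 in WT-24, 214 and 696 in Mut-101, and 443 and 221 in Mut-1. The female readings were 88.8 and 81.1 in non-transgenic discs, 129.9 and 109 in WT-6, 119 and 102 in WT-24, 184 and 159 in Mut-101, and 97.1 and 277 in Mut-1. Males and females overlapped in WT-24 and Mut-1, and the highest array, 696 in Mut-101, had a partner at 214. The log2 difference was 0.83 ± 0.237 (SE), 1.77-fold higher in males, and lay between 0.08 in WT-24 and 1.22 in non-transgenic discs. The female mean, 135, was below 158, the lowest geometric mean of a tested probe set, so female arrays alone would not have reached the tested level. With no detection calls used here, it is not known whether the female signal exceeded background. Arrays of the same group held 30.1% of its sum of squares, slightly more than the 28.3% held by sex.

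CG1835, known only by its identifier here, had the largest sex difference of the 9. Male intensities were 93.2 and 85.7 in non-transgenic discs, 90.2 and 94.3 in WT-6, 66.7 and 69.0 in WT-24, 98.9 and 153 in Mut-101, and 94.6 and 111 in Mut-1. Female intensities were 413 and 421 in non-transgenic discs, 383 and 559.5 in WT-6, 469.8 and 408 in WT-24, 519 and 491 in Mut-101, and 390.3 and 499 in Mut-1. The highest male array, 153, lay far under the lowest female array, 383. The means, 95.7 ± 24.1 in males and 455 ± 60.6 in females (SD, n = 10 each), differed by −2.28 ± 0.0911 (SE) on the log2 scale, 4.84-fold. The lines lay between −2.69 in WT-24 and −2.04 in Mut-101. The male mean was below 158, the lowest geometric mean of a tested probe set, and with no detection calls used here it is not known whether the male signal exceeded background. Log2 of intensity plus 32, which damps low values, gave −1.94.

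CG32572 was higher in males in each line without overlap inside a line. Male discs measured 595 and 679 in the non-transgenic line, 676 and 780.2 in WT-6, 778 and 883 in WT-24, 838 and 873 in Mut-101, and 929 and 1036 in Mut-1. Female discs measured 357 and 355 in the non-transgenic line, 406 and 355 in WT-6, 360.4 and 329 in WT-24, 439 and 418 in Mut-101, and 627 and 672 in Mut-1. The females of Mut-1 reached the level of the lowest males of other lines, so the 10 male and 10 female arrays overlapped as a whole. Males averaged 807 ± 133 and females 432 ± 120.1 (SD, n = 10 each), a log2 difference of 0.93 ± 0.0493 (SE) or 1.90-fold. The difference was smallest in Mut-1, 0.60, and largest in WT-24, 1.27.

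CG32793 was lower in males in each line. Male readings were 266 and 273 in non-transgenic discs, 275 and 256 in WT-6, 306 and 238 in WT-24, 237 and 217.7 in Mut-101, and 250.4 and 259.9 in Mut-1. Female readings were 647 and 552 in non-transgenic discs, 520.4 and 612 in WT-6, 786 and 678 in WT-24, 534 and 481 in Mut-101, and 501 and 427 in Mut-1. The 10 male arrays formed a tight group below every female array, and the lowest female array, 427, was one of Mut-1. The means of 258 ± 24.5 and 574 ± 107 (SD, n = 10 each) gave a log2 difference of −1.14 ± 0.0626 (SE), 2.20-fold, with lines from −1.44 in WT-24 to −0.86 in Mut-1.

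The 9 genes differed in how far their sex difference held over single arrays. In FucTC, CG1835, kek5, Rbm13 and CG32793, 5 of 9, no male array overlapped a female array, against 0.877% of all tested probe sets (90 of 10262). With CG32572 added, 6 of 9 had no overlap within each of the 5 lines, against 2.71% of all tested probe sets. For corolla the arrays separated in 4 lines, and for olf186-M and Nplp2 in 3. The same sign in all 5 lines, which the choice required, was found in 23.3% of all tested probe sets. A difference over 2-fold was found for 7 of 9 genes, all but CG32572 and olf186-M, and for 0.195% of all tested probe sets. These shares come from the contrast that chose the genes and carry no test.

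**Figure D2:**
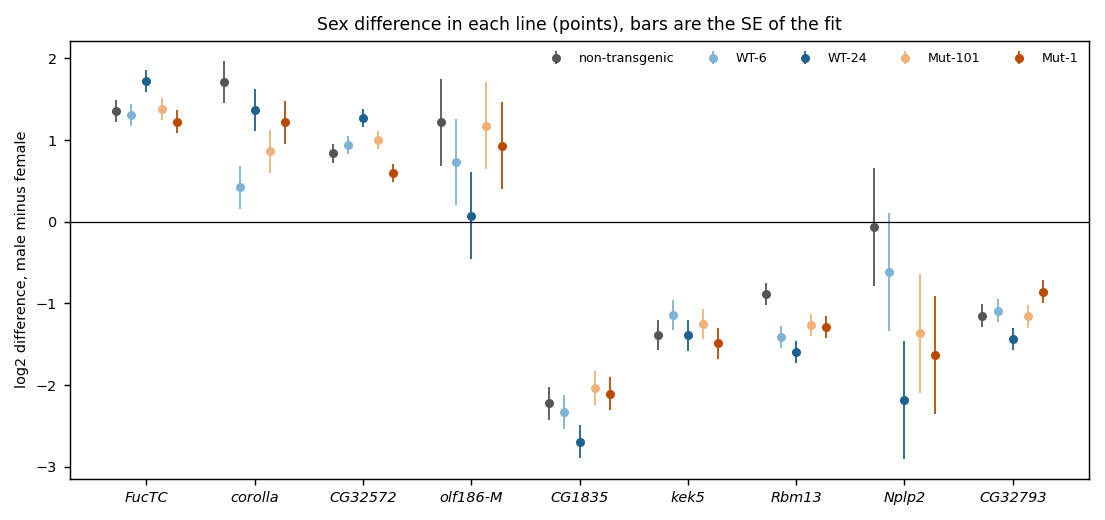
Log2 difference male minus female of each gene in each of the 5 lines, with bars for the SE of the fit (2 arrays per sex and line). All points of a gene lie on one side of 0, and those of FucTC, CG32572, CG1835, kek5, Rbm13 and CG32793 stay far from it, while WT-24 for olf186-M (0.08) and non-transgenic discs for Nplp2 (−0.06) lie near it.

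Whether the sex difference itself varied between genotypes was tested, since the size of that contrast did not choose the genes. The choice did require the same sign in all 5 lines, which limits the spread over lines and works against a call. The sex difference in C96Y discs minus that in wild-type proinsulin discs was called for 0 of 9 genes and for 0% of the tested probe sets (limma, adjusted p = 0.999 for each of the 9). At an unadjusted p under 0.05 it was found for 1 of the 9 genes and 341 probe sets (3.32%). That gene was CG32572, with a difference of −0.30 ± 0.110 (SE) and an unadjusted p of 0.0162 in the limma fit. Its log2 sex difference was 1.00 in Mut-101 and 0.60 in Mut-1, against 0.94 in WT-6 and 1.27 in WT-24. The spread of the sex difference over the 5 lines, a moderated F test in limma, was called for 0 of 9 genes and 0% of probe sets, with adjusted p from 0.888 to 0.952. At an unadjusted p under 0.05 it was found for CG32572, Rbm13 and corolla, and for 557 probe sets overall (5.43%). For FucTC the interval of the difference between C96Y and wild-type discs ran from −0.51 to 0.08 log2 units and for kek5 from −0.50 to 0.30, which is the precision that 2 arrays per group gave.

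By position, 7 of the 9 genes lie on the X chromosome, olf186-M on 2R and Nplp2 on 3L. X-linked genes made up 16.9% of the 8009 tested named genes. X-linked genes as a class differed little on average, with a median log2 difference of −0.022 over 1356 genes against 0.018 over 6607 autosomal genes, but they differed more often. On the X 32.7% were called between the sexes, against 7.30% on the autosomes, and 64 X-linked genes showed no overlap of the 10 male and 10 female arrays, against 8 autosomal genes. After each array was centred on its median, 29.8% on the X and 2.71% on the autosomes were called, and FucTC, CG1835, kek5, Rbm13 and CG32793 again showed no overlap, as they did after quantile normalization. The choice of the 9 genes used these differences, so their place on the X is a description.

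**Figure D3:**
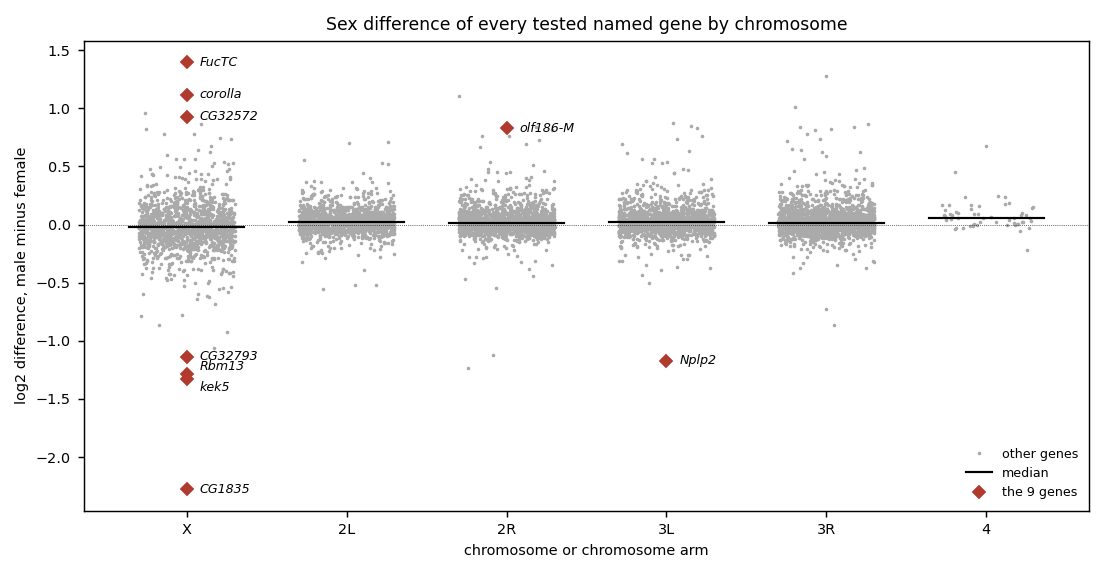
Log2 difference male minus female of every tested named gene by chromosome or arm (grey points, spread sideways at random), with the median as a bar and the 9 genes as diamonds. The medians lie near 0 on each arm, the X has the widest spread, and 7 of the 9 genes lie on it.

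The nearest tested genes on the chromosome had smaller differences. The 9 genes were chosen for the largest differences in this same contrast, so smaller ones nearby were largely set by the choice and are a description. For each of the 9 genes the nearest tested gene on either side was taken, 18 in all, termed neighbours here. Only 9 of them are adjacent, with no other gene start between, and up to 18 other gene starts lie between the others and their gene (Ser6, 301 kb from CG1835), so those closer genes are not covered. The largest absolute log2 sex difference among the 18 was 0.31, for nAChRalpha7, an acetylcholine receptor subunit gene adjacent to kek5. Of the 18 neighbours, 7 were called between the sexes, 6 in the direction of their chosen gene and 1 opposite, where 12.3% of all tested probe sets were called. On the X lie 14 of the neighbours, of which 6 were called, where 32.7% of all tested X-linked genes were called. Both neighbours of corolla, CG8326 (0.16) and CG8289 (0.14), were called higher in males with it. Around CG32572 goe (0.13) was called and CG34325 (−0.06) was not. Cyp6v1, a cytochrome P450 gene next to CG1835, was called lower in males at −0.20, and e(r) next to Rbm13 at −0.13. SNCF, the nearest tested gene after Nplp2, was called in the opposite direction at 0.25. Neither neighbour was called for FucTC (fog −0.15, Rab21 −0.07), olf186-M (Orai 0.11, CG14490 0.04) or CG32793 (CG3588 0.18, CG14420 0.17). The sign of such small differences depends on scaling: with median-centred arrays 3 neighbours were called in the same direction and 1 opposite, and after quantile normalization 6 and 0.

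**Figure D4:**
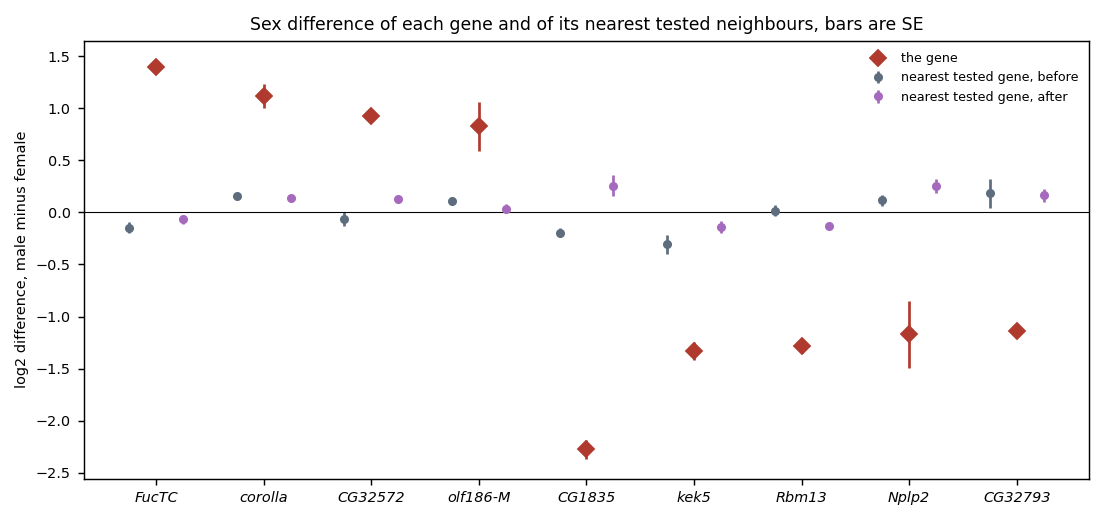
Log2 difference male minus female of each of the 9 genes (diamonds) and of the nearest tested gene before and after it on the chromosome (circles), with bars for the SE. All 18 neighbours lie within 0.31 of 0, below the difference of the gene they flank, which the choice of the 9 genes largely set in advance.

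The transgene groups were compared next, with the sexes weighted equally, which asks whether these genes also respond to C96Y proinsulin. C96Y against wild-type proinsulin was called for 4 of 9 genes, 3 higher and 1 lower, where 20.1% of all tested probe sets were called, 11.5% higher and 8.59% lower. The median log2 difference of the 9 was 0.23, against −0.0028 over all tested probe sets. The errors behind these p-values come from arrays within lines, so variation among insertion lines is not in them. With 1 mean per line, 2 lines against 2, none of the 9 genes and none of the 10262 probe sets was called in limma.

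CG32572 rose in C96Y discs by 0.39 ± 0.0552 on the log2 scale (SE, adjusted p = 0.00034, limma). In females the 4 C96Y arrays (418 to 672) lay above the 4 wild-type arrays (329 to 406), and in males the ranges overlapped (838 to 1036 against 676 to 883). The call held when any single array was left out and ended without line Mut-1, where the difference was 0.19 (adjusted p = 0.123). It also ended with 1 mean per line and sex and with 1 mean per line. The 2 mutant lines differed as well, with a log2 difference Mut-101 minus Mut-1 of −0.40 ± 0.0780 (adjusted p = 0.0115, limma), the 1 call among the 9 genes in that comparison, where 3.49% of probe sets were called and 2.16% called lower. That call ended without Mut-101 female replicate 2 (adjusted p = 0.0536), Mut-1 male replicate 2 (0.0683) or Mut-1 female replicate 2 (0.0526).

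CG32793 fell in C96Y discs by 0.28 on the log2 scale (SE 0.070, adjusted p = 0.0133, limma). Its arrays overlapped between the groups in both sexes, 217.7 to 259.9 against 238 to 306 in males and 427 to 534 against 520.4 to 786 in females. The call held without any single array and ended without line WT-24 (−0.18, adjusted p = 0.17), Mut-101 (−0.27, 0.0588) or Mut-1 (−0.29, 0.0731), and with median-centred arrays (adjusted p = 0.0678). It also ended with 1 mean per line and sex and with 1 mean per line.

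Rbm13 rose by 0.23 ± 0.0669 (SE, adjusted p = 0.0301, limma). In males the 4 C96Y arrays (1133 to 1217) lay above the 4 wild-type arrays (887 to 981), and in females they overlapped (2681 to 2932 against 2261 to 2821). This call was lost in 9 of 20 fits that left out 1 array, without any 1 of the 4 transgenic lines, and with median-centred arrays (adjusted p = 0.118). It was also lost with 1 mean per line and sex and with 1 mean per line. With the description number as a replicate block the Rbm13 difference was 0.17 (adjusted p = 0.328). olf186-M differed by 0.87 ± 0.265 (SE, adjusted p = 0.0346, limma), with overlapping arrays in both sexes. Its mean was 286 in C96Y discs against 137 in wild-type and 145 in non-transgenic discs, both under 158, the lowest geometric mean of a tested probe set, so it was tested only because C96Y discs were high, and its call is a description that supports nothing. With no filter on mean intensity its adjusted p was 0.0528, and with every probe set 0.0532. The call was also lost in 12 of 20 such fits and without any 1 of the 4 transgenic lines, where the difference was between 0.65 and 1.09. Without the 2 arrays of highest fat body level, chosen after the values were seen, Rbm13 (adjusted p = 0.0622) and olf186-M (0.0561) were not called either.

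The other 5 genes were not called. CG1835 had a difference of 0.29 ± 0.102 (adjusted p = 0.0643, limma), and it was called without line WT-6 (adjusted p = 0.0342) or without any of 3 arrays, among them WT-6 female replicate 2 (0.0242). Its means were 114 in C96Y and 80 in wild-type males, and 475 and 455 in females. The wider gap was thus in males, where it is not known whether its signal exceeded background. FucTC had −0.06 with an interval from −0.20 to 0.09, kek5 −0.01 with −0.21 to 0.19, corolla 0.11 with −0.17 to 0.40, and Nplp2 0.26 with −0.52 to 1.04 (95% intervals of the log2 difference).

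Against non-transgenic discs, C96Y was called for 4 of 9 genes, all higher, where 11.5% of all tested probe sets were called and 6.8% called higher. Of the called probe sets 58.9% were higher in C96Y, and 75.5% after median-centring. corolla differed by 0.97 ± 0.160 (SE, adjusted p = 0.00182), Rbm13 by 0.58 ± 0.0820 (0.000586), CG32572 by 0.55 ± 0.0676 (0.000203) and kek5 by 0.51 ± 0.114 (0.0127), all from limma. For corolla the means were 183 in C96Y and 76.3 in non-transgenic females, and 380 and 242 in males. The non-transgenic female mean was under 158, the lowest geometric mean of a tested probe set. The calls for corolla, Rbm13 and CG32572 held without any single array, but with 1 mean per line and sex corolla (adjusted p = 0.0977), CG32572 (0.11) and kek5 (0.0717) were not called, and with 1 mean per line none of the 4 was. That for kek5 ended as well without non-transgenic male replicate 2 (adjusted p = 0.0588), non-transgenic female replicate 2 (0.0703), the 2 arrays of highest fat body level (0.0703) or line Mut-101 (0.115), and with the description number as a replicate block (0.0723). olf186-M, at 0.90 ± 0.325 (adjusted p = 0.0932, limma), was called without Mut-101 male replicate 1 or Mut-1 female replicate 1. The second kek5 probe set gave 0.04, with a 95% interval from −0.32 to 0.40.

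Wild-type proinsulin against the same non-transgenic arrays was called for 0 of 9 genes and for 0.107% of all tested probe sets (limma). At an unadjusted p under 0.05 it was found for 5 of the 9 genes and 733 probe sets (7.14%). The 2 comparisons share the 4 non-transgenic arrays. corolla differed by 0.85 ± 0.160 (adjusted p = 0.0773, limma), kek5 by 0.51 ± 0.114 (0.208) and Rbm13 by 0.35 ± 0.0820 (0.234). Without non-transgenic female replicate 1, corolla (adjusted p = 0.013) and Rbm13 (0.00414) were called, and without WT-6 male replicate 2 kek5 was (0.0214). Nplp2 differed from non-transgenic discs by −1.39 ± 0.442 in wild-type and −1.12 ± 0.442 in C96Y discs, neither of them called (adjusted p = 0.544 and 0.119, limma). The non-transgenic line is 1 stock, so its genetic background and the lack of a transgene cannot be told apart.

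WT-24 against WT-6 was called for 0 of 9 genes in limma, where 0.955% of probe sets were called, with 2 of the 9 genes and 907 probe sets (8.84%) at an unadjusted p under 0.05. The 2 genes were corolla, 0.49 ± 0.185, and Nplp2, −1.38 ± 0.511 (SE).

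**Figure D5:**
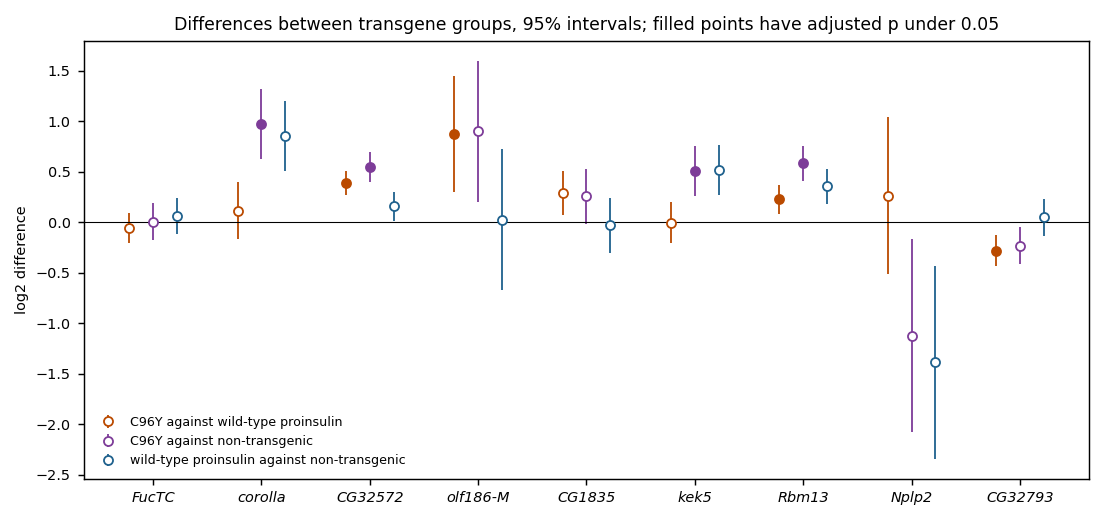
Log2 difference of each gene in C96Y against wild-type proinsulin, C96Y against non-transgenic and wild-type proinsulin against non-transgenic discs, with 95% intervals and filled points for an adjusted p under 0.05 in limma. Filled points are 4 in the first comparison, 4 in the second and 0 in the third, and the widest intervals belong to Nplp2 and olf186-M. The filled point of olf186-M belongs to a gene that was tested only because C96Y discs were high.

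Among 7 lists of genes that work with the 9 or are related to them, 9 of 62 tested genes were called between the sexes, or 14.5%, near the 12.3% of all tested probe sets. Among fucosyltransferases and enzymes of fucose supply other than FucTC, 7 of 10 were tested and 1 was called, O-fut2, which fucosylates thrombospondin repeats, lower in males at −0.16. Their median log2 sex difference was −0.077, against 0.023 over all tested probe sets. Of the genes of the synaptonemal complex and meiotic recombination other than corolla, 9 of 18 were tested and 1 was called, the repair endonuclease gene mei-9, lower in males at −0.18, with a median of 0.049. The partners of corolla in the complex, c(3)G at 0.10 ± 0.0513 and cona at 0.19 ± 0.0811 (SE), were not called.

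Of 11 other kekkon and related leucine-rich repeat genes 10 were tested, and haf (0.36) and trn (0.07) were called higher in males (trn only without further scaling), with a median of 0.056. Of 15 BMP pathway genes 12 were tested, with the ligand gene dpp (0.15) and the inhibitor gene Dad (0.10) called higher, both lost after median-centring, and a median of 0.088. Among 19 ribosome biogenesis genes other than Rbm13, 16 were tested, and 3 were called lower in males in all 3 scalings, Nop60B (−0.08), bys (−0.19) and peng (−0.11), with a median of −0.037. The 4 tested neuropeptide precursor genes besides Nplp2 ranged from −0.13 to 0.54, and the 4 tested genes of store-operated calcium entry besides olf186-M from −0.04 to 0.11.

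For C96Y against wild-type proinsulin 8 of the same 62 genes were called, or 12.9%, against 20.1% of all tested probe sets, and none of the called differences exceeded 0.25 log2 units in size. With median-centred arrays 1 of the 62 was called, trn, and after quantile normalization 10 were. Gmd (0.10) and nac (0.18), which supply and transport fucose, were higher and O-fut1 (−0.20) lower among 7, and mei-9 (0.19) was higher among 9. kek2 (−0.25) and trn (−0.18) were lower among 10, vito (−0.10) lower among 16 and Nplp1 (−0.22) lower among 4. The 12 BMP genes ranged from −0.10 to 0.05 and the 4 calcium entry genes from −0.08 to 0.03. List medians ran from −0.11 for neuropeptide precursors to 0.094 for fucose enzymes.

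Some regulators of sex determination and dosage compensation differed between the labelled sexes. msl-2 was higher in males by 0.71 ± 0.0578 and tra higher in females by 0.44 (log2 −0.44 ± 0.0392, SE). Sxl was called higher in males in all 3 scalings. Of 23 tested genes of that list 6 were called higher in males, 2 lower and 15 not called, or 3 higher and 2 lower after median-centring. Over all tested probe sets 7.76% were called higher and 4.56% lower in males.

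Over the 20 arrays, each gene was set beside all named tested genes by Pearson correlation of log2 intensity, as a description of likeness. Since the arrays are of both sexes, r includes the difference between the sexes, which held 84.8% or more of the sum of squares for the 5 genes without overlap and 26.2% and 28.3% for Nplp2 and olf186-M. FucTC was most like CG15317 (r = 0.962) and CG15739 (0.959), CG1835 like sni (0.970) and CG3939 (0.948), and kek5 like sni (0.939) and CG1835 (0.931). Rbm13 was most like CG4593 (0.970) and CG3342 (0.940), CG32793 like AlkB (0.960) and CG14270 (0.935), and CG32572 like CG14220 (0.941) and CG17778 (0.940). All of these lie on the X. The closest genes of corolla were Rca1 (0.894) and p53 (0.862), of olf186-M mud (0.859) and CG42686 (0.841), and of Nplp2 CG9547 (0.862) and Nepl19 (0.855). Among the 9 themselves FucTC and CG1835 ran opposite to each other most closely (r = −0.971), while Nplp2 and olf186-M were nearly unrelated (−0.111).

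Markers of other tissues were set beside the sex difference. Muscle markers, of which 9 of 14 were tested, were higher in males for 2, Act87E (0.82) and bt (0.67), with a summed intensity of 5101 to 13884 in males and 5089 to 15092 in females. Their median difference of 0.73 was far from the 0.023 over all tested probe sets. The 2 non-transgenic female arrays held the highest and the lowest muscle sum of all 20. In that order FucTC read 194 and 168, CG1835 413 and 421, CG32572 357 and 355, and olf186-M 88.8 and 81.1. corolla read 96.6 and 55.9, Rbm13 1993 and 1374, Nplp2 1701 and 849, kek5 2486 and 2172, and CG32793 647 and 552. After the mean of each group was removed, r with the muscle sum ran from −0.10 for CG32572 to 0.57 for corolla. Germ line and testis markers, 12 of 28 tested, summed to 8432 to 9769 in males and 8256 to 8883 in females, with 1 called, janB, higher in males, a call lost after median-centring and after quantile normalization, where bgcn was called lower instead. Fat body markers, 10 of 16 tested, summed to 9288 to 48007 in males and 11131 to 32399 in females, with single-gene differences from −1.13 to 0.47. Without the 2 arrays of highest fat body level, the log2 sex differences of the 9 genes kept their signs. The part of muscle and germ line cells in the sex differences was not tested.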

How the data were processed

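RNA of 20 eye disc samples was hybridised to Affymetrix arrays after amplification and biotin labelling, per the labels' protocols. The authors deposited 1 linear intensity per probe set and array, all above 0, and the submitters' processing notes name MAS5 with no version or scaling target. Of 18952 probe sets 183 are controls and were left out. Gene names come from the platform table and chromosomes from a RefSeq gene table (Release 6 plus ISO1 MT).

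The deposited intensity was taken to log2 with no constant added and no further scaling. Each gene was represented by its probe set of highest mean, unnamed probe sets were kept, and the upper 60% by mean were tested, which gave 10262. A model with 1 mean per line and sex was fitted with limma 3.58.1 in R 4.3.3 (eBayes with a trend, two-sided tests, Benjamini-Hochberg adjustment over all tested probe sets, threshold 0.05, 10 residual and 3.19 prior degrees of freedom). The script was checked on simulated data. The second kek5 probe set comes from the same fit on every non-control probe set. The number of arrays limits the precision.

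The members and lists were chosen with earlier results of these data known. Named genes are the 9 genes, the next 2 on each side of the choice, the nearest tested gene on either side of each, the 2 most correlated genes of each, and up to 4 called members of each list by smallest p. Same-numbered arrays did not deviate together (median r = −0.028 for title numbers, −0.022 for description numbers), so the numbers were not taken as pairs. Alternatives were median-centring, quantile normalization, a constant of 32, other filters, every probe set, no trend, replicate blocks, leaving out arrays or lines, and lines as replicates.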

Additional observations from a re-analysis of the deposited data

Results flagged for a closer look

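Of 18 sets of 10 arrays, 1 per gene and sex, 3 held an array that stood apart from the other 9 by Dixon's criterion, which chance alone meets in about 1 of 20 sets. CG1835 read 153.05 in Mut-101 male replicate 2, the array of highest median intensity, against at most 111 in the other males, and the gap was 0.484 of the whole range. FucTC read 239.67 in Mut-1 female replicate 2, with a gap of 0.560 of the range, and olf186-M read 277.15 in the same array, with a gap of 0.477. For CG1835 and FucTC the array still lay on the side of its own sex, while for olf186-M it lay above 8 of the 10 male arrays.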

How the results depend on the processing

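None of the 9 called transgene differences and none of the 9 sex differences of the genes changed sign, while 17 of 45 differences that were not called did in at least 1 fit. This was largely set in advance. The genes were chosen for large sex differences of the same sign in all 5 lines, and a called difference lies far from 0. Of 4 genes called for C96Y against wild-type proinsulin, 2 were called with median-centred arrays, 2 of the 4 genes tested in the upper 40% by mean, 2 without the 2 arrays of highest fat body level (added after seeing the data), 1 without line WT-24, 1 without line Mut-101, 0 without line Mut-1, 1 with 1 mean per line and sex and 0 with 1 mean per line (also added). The 1 call left with 1 mean per line and sex was that of olf186-M, which was tested only because C96Y discs were high. Leaving out single arrays gave 2 to 5 calls in this comparison. Of 4 called for C96Y against non-transgenic discs, 1 remained called with 1 mean per line and sex and 0 with 1 mean per line, and single arrays gave 3 to 5. Wild-type proinsulin against non-transgenic discs had 1 call without line WT-6 and 0 to 2 without single arrays. Mut-101 against Mut-1 had 0 calls with the description number as replicate block and 0 to 1 without single arrays. Differences over 2-fold between the sexes numbered 3 of 4 genes tested in the upper 40%, and 6 to 7 without single arrays. The causes were not tested, except that fewer genes or lines enter the stricter filter and the fits with lines as units. The replicate block by title number left 4, 4, 0 and 1 calls in these comparisons, as without it, and the block by description number ended the calls of Rbm13 (C96Y against wild-type proinsulin) and kek5 (C96Y against non-transgenic discs). Over all probe sets, median-centring changed 2058 calls to 604 for C96Y against wild-type proinsulin, 1185 to 330 against non-transgenic discs, 358 to 180 between mutant lines, 98 to 43 between wild-type lines and 11 to 6 for wild-type proinsulin against non-transgenic discs. With 1 mean per line and sex the first 2 numbers were 791 and 175, and with 1 mean per line both were 0. For male against female, 1264 calls, 63.0% of them higher in males, became 715 with 14.0% higher after median-centring and 830 with 37.6% higher after quantile normalization, so the sign of small sex differences depends on scaling. Signal over background could not be judged for CG1835 in males.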

Other observations

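Larger sex differences than those of some of the 9 genes exist in these arrays outside the choice. Among tested probe sets without a single gene, 5 were called higher in males with log2 differences of 1.24 to 1.78. The antimicrobial peptide genes Mtk and DptB had differences, male minus female, of −1.23 ± 0.440 and −1.13 ± 0.367 (SE), and l(2)efl, a small heat shock protein gene, and Mlc1, a myosin light chain gene, were higher by 1.11 ± 0.379 and 1.01 ± 0.345, none of them called in limma. With median-centred arrays DptB was called lower in males. The ring gland gene spok was higher in males by 1.28 ± 1.06 without the same sign in all lines.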
